A study of Homo sapiens with 6 samples.

Results

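The genes described here are 32 established targets of the transcription factor p53, found by symbol among the 60658 Ensembl gene identifiers of each library. The list was fixed, but it was chosen with earlier results of these data known. All 32 members matched 1 identifier each. Their RNA was measured in C4-2B MDVR and in CWR22Rv1, 2 human cell lines of castration-resistant prostate cancer. The cells had been given vehicle (DMSO) or 1 of 2 inhibitors, apoptozole (APO) and VER155008 (VER), each at 10 µM and for 48 h. Both compounds are small-molecule inhibitors of the chaperone HSP70. The C4-2B MDVR line was derived from C4-2B, itself descended from LNCaP. The study describes both lines as resistant to enzalutamide and abiraterone. C4-2B MDVR cells were maintained in medium with 20 µM enzalutamide, whereas no enzalutamide is stated for the CWR22Rv1 medium. The published methods do not say whether enzalutamide was present during the 48 h of treatment. The source labels of the MDVR libraries read LNCaP-C4-2B and all cells are labelled parental, so the line was taken from the titles. Each of the 6 conditions has 1 library, so differences within a line stand without replicates and carry no p-value.

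The p53 protein is held low in unstressed cells by the ubiquitin ligase MDM2 and its partner MDM4. When stress releases it, p53 binds response elements in DNA and switches on genes that stop the cell cycle, repair DNA, retune metabolism and, in some cells, start cell death. Several targets, MDM2 among them, act back on p53 and limit the response. The proteins that HSP70 folds include p53 in some settings, and much of the control of p53 acts on the protein and not on its messenger RNA, which RNA sequencing does not see.

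A p53 response element is a pair of decamers, each of 3 purines, a C, 2 bases that are A or T, a G and 3 pyrimidines. The search allowed up to 2 mismatches over the 20 positions while keeping the C and the G of both cores, with no spacer between the decamers. The element is its own reverse complement, so 1 search covered both strands. The 5 members with a match are shown because the element is that of the factor that names the group, and no binding was measured. Each is written 5′ to 3′ on the strand of its gene, with the 4-base core of each decamer in capitals.
MDM2: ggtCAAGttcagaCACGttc
DDB2: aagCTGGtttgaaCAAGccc
GLS2: aggCTTGctggggCATGcgc
AEN: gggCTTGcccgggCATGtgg
SUSD6: gcaCAAGcccaggCTTGccc

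The MDM2 match lay in an intron at chr12:68808923-68808942 on the plus strand, 94 to 75 bases before an annotated start, and had 2 mismatches. It sat in the internal promoter of MDM2, known as a p53-responsive promoter, which is printed below from chr12:68808767-68809001 (RefSeq, GRCh38.p14, plus strand, 235 bases with no exon), with the same cores in capitals.
MDM2 promoter: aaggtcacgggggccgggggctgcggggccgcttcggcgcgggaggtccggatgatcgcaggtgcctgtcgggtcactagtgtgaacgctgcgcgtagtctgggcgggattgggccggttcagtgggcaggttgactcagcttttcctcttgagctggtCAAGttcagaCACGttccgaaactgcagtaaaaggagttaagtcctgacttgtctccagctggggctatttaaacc
The DDB2 match, with 1 mismatch, was in the 5′ UTR in exon 1 at chr11:47214969-47214988 on the plus strand (GENCODE 29, GRCh38). That of GLS2, with 2 mismatches, was in exon 1 at chr12:56488113-56488132 on the minus strand, across the border of 5′ UTR and coding sequence in most transcripts that hold it. In AEN it had 2 mismatches and lay in the 5′ UTR in exon 1 at chr15:88621306-88621325 on the plus strand. The SUSD6 match, with 1 mismatch, lay in the 3′ UTR in exon 6 at chr14:69713297-69713316 on the plus strand.

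A match in the promoter window, from 250 bases before to 50 bases after a RefSeq start, was found for 4 of the 28 members with a window (14.3%) and for 98 of 27305 genes (0.359%). Within exons, 4 of 32 members (12.5%) and 641 of 19951 protein-coding genes (3.21%) had a match. A match is a description of letters, not of binding, and the other members have none in the windows searched, which says nothing about binding elsewhere. No promoter entry was given for TP53INP1, RRM2B, PHLDA3 and GADD45A.

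Values are FPKM, the fragments of a gene per length of transcript and per read of the library, so levels can be set beside each other across genes. A difference is that of log2(FPKM + 0.1) between libraries of 1 line, and was computed for genes above 0.1 FPKM in at least 1 of the 3 libraries of that line. The pseudocount of 0.1 understates differences of genes near that level. This left 20122 genes in C4-2B MDVR cells and 21608 in CWR22Rv1 cells, with 31 and 32 members among them. EDA2R was the member not compared in C4-2B MDVR cells. The relative depth read from low values was lowest, set to 1, with DMSO and highest, 1.64, with APO in C4-2B MDVR cells, so a low FPKM is least precise in the former. Genes of the mitochondrial chromosome held 10.4% of all FPKM in the CWR22Rv1 APO library and 25.7% in the other libraries of that line, against 14.8% to 16.4% in C4-2B MDVR cells. The 5 prostate epithelium markers KLK3, KLK2, HOXB13, KRT8 and KRT18 were above 1 FPKM, with summed levels from 443 to 853 FPKM. The 3 leukocyte and 3 endothelial markers stayed under 1 FPKM in every library. The 4 fibroblast markers summed to 6.91 to 11.1 FPKM in C4-2B MDVR and 17.9 to 31.6 FPKM in CWR22Rv1 cells, where LUM had 13.1 to 26.2 FPKM, and their part in the results was not tested.

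Against DMSO, more members were higher with VER than with APO in each line. In C4-2B MDVR cells 28 of 31 members were higher with VER than with DMSO by more than 1.2-fold, the threshold used in the study, where 35.6% of all genes compared were. PLK2 was the 1 member lower past that threshold (34.9% of all genes). In CWR22Rv1 cells 26 of 32 were higher with VER than with DMSO (32.1% of all genes) and 1, PIDD1, was lower (32.3%). The members' median difference was 1.56 on the log2 scale in C4-2B MDVR cells and 1.03 in the CWR22Rv1 line, while the median of all genes compared was 0.00 in both. Past 2-fold, 20 members were higher in C4-2B MDVR cells (14.4% of all genes) and 17 in CWR22Rv1 cells (10.8%).

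APO gave a smaller and more divided picture. In C4-2B MDVR cells 15 of 31 members were higher with APO than with DMSO (37.7% of all genes) and 8 were lower (35.4%), with a median of 0.26. For CWR22Rv1 cells the counts were 22 of 32 higher (35.6%) and 6 lower (39.2%), with a median of 0.52. Past 2-fold only 3 members were higher in C4-2B MDVR cells (15.4% of all genes) and 7 in CWR22Rv1 cells (13.8%). At 2-fold the members higher in C4-2B MDVR cells thus did not exceed the share of all genes. CDKN1A, GADD45A and DRAM1 made up these 3, a count too small to set apart from that share.

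Set against each other, VER exceeded APO for most members. With VER, 27 of 31 members in C4-2B MDVR cells were higher than with APO (28.5% of all genes) and 1, DRAM1, was lower (32.5%), with a median of 1.31. In CWR22Rv1 cells 25 of 32 were higher (37.3% of all genes) and 2, GADD45A and TIGAR, were lower (34.5%), with a median of 0.48. Past 2-fold the counts were 21 in C4-2B MDVR (8.68% of all genes) and 9 in CWR22Rv1 cells (15.6%), so in CWR22Rv1 cells the excess of VER was mostly under 2-fold. These comparisons share libraries: both contrasts with DMSO use the same DMSO library, and the contrast of VER with APO uses the same VER and APO libraries.

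The deposited scaling matters for this contrast. Rescaling to the same sum of FPKM, with or without mitochondrial genes, moved the median of all genes above 1 FPKM in C4-2B MDVR cells from -0.03 to 0.12 and 0.15, and in CWR22Rv1 cells from -0.05 to -0.23 and 0.04. The shares of all genes higher and lower then became 39.2% and 23.2% in C4-2B MDVR cells without mitochondrial genes, and 30.9% and 43.1% in CWR22Rv1 cells with them. Over these rescalings and the other settings at 1.2-fold, the members higher with VER than with APO numbered 27 to 29 in C4-2B MDVR and 19 to 26 in CWR22Rv1 cells. Scaling also matters for APO against DMSO. There the same rescalings moved the median of all genes above 1 FPKM from 0.01 to -0.14 and -0.15 in C4-2B MDVR cells. In CWR22Rv1 cells it went from 0.01 to 0.12 and -0.15. The members' median in C4-2B MDVR cells fell from 0.26 to 0.11 and 0.10, with 13 members higher and 10 lower after either rescaling.

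**Figure D1:**
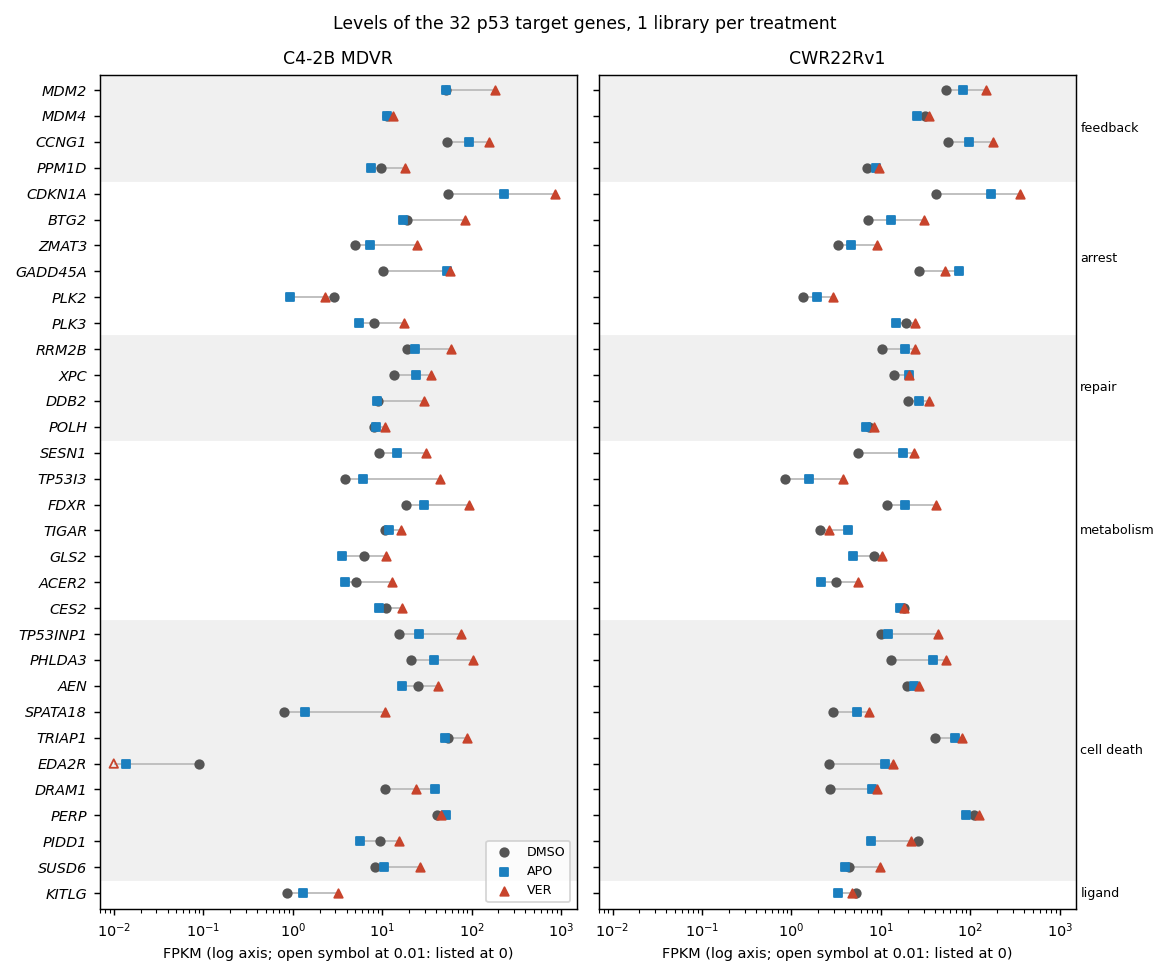
Levels of the 32 members in FPKM on a log axis, with C4-2B MDVR cells on the left and CWR22Rv1 cells on the right. Each symbol is 1 library (grey circle DMSO, blue square APO, red triangle VER; the open triangle at 0.01 marks a gene listed at 0) and the bands group the genes by role; the triangle lies furthest right for most members, as for CDKN1A at 855 and 359 FPKM.

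Among the 4 feedback regulators, 3 were higher with VER than with DMSO in each line, MDM2, CCNG1 and PPM1D (35.6% of all genes in C4-2B MDVR cells and 32.1% in the CWR22Rv1 line). MDM2 is the ligase that marks p53 for degradation. Its level was 51.3 FPKM with DMSO, 51.6 after APO and 182 after VER in C4-2B MDVR cells, and 54 with DMSO, 83.4 after APO and 149 after VER in CWR22Rv1 cells. The APO library thus matched DMSO in C4-2B MDVR cells, where the difference was 0.01, and stood between DMSO and VER in CWR22Rv1 cells. MDM2 with VER was 3.56-fold and 2.76-fold its DMSO level in C4-2B MDVR and CWR22Rv1 cells.

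CCNG1 encodes cyclin G1, which works with a phosphatase to activate MDM2. It had 52.9, 93.6 and 156 FPKM in the order DMSO, APO, VER in C4-2B MDVR cells. CWR22Rv1 cells had 56.5, 97.1 and 179 FPKM in the same order. Both lines showed nearly the same steps, with differences from DMSO of 0.82 and 0.78 for APO and 1.56 and 1.66 for VER. PPM1D, the phosphatase WIP1 that switches off the damage response, had 9.7, 7.59 and 18.1 FPKM in C4-2B MDVR cells and 6.94, 8.92 and 9.63 FPKM in CWR22Rv1 cells. Its excess of VER over APO was 1.24 in the former and 0.11, under the threshold, in the latter. MDM4, which blocks the activation domain of p53, moved little, from 11.4 FPKM with DMSO to 13.2 with VER in C4-2B MDVR and from 30.8 to 34.6 in CWR22Rv1 cells. In CWR22Rv1 cells it was at 25.2 FPKM with APO, 0.46 below VER on the log2 scale.

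The 6 genes of cell cycle and growth arrest included the member with the highest level. CDKN1A (chr6:36676460-36687339, plus strand, GENCODE 29 on GRCh38) encodes p21, the inhibitor of cyclin-dependent kinases. In C4-2B MDVR cells it had 54.5 FPKM with DMSO, 232 after APO and 855 after VER. CWR22Rv1 cells had 41.3, 172 and 359 FPKM in the same order. APO gave a like step in both lines, 4.25-fold and 4.17-fold, while VER reached 15.7-fold in C4-2B MDVR cells and 8.7-fold in the CWR22Rv1 line. The VER level was 3.69-fold and 2.08-fold that with APO.

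BTG2, an antiproliferative partner of the messenger RNA deadenylation machinery, did not follow APO in C4-2B MDVR cells, with 19 FPKM with DMSO and 17.1 with APO, and was at 83.5 with VER. In CWR22Rv1 cells the levels were 7.11, 12.9 and 30.1 FPKM. The excess of VER over APO was 2.28 and 1.22. ZMAT3 encodes a zinc finger protein that binds RNA. Its levels of 5.02, 7.32 and 24.6 FPKM in C4-2B MDVR cells and 3.33, 4.68 and 8.95 FPKM in the CWR22Rv1 line followed the order DMSO, APO, VER in each line.

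GADD45A, a small stress sensor of growth arrest, was an exception in this group. It had 10.1 FPKM with DMSO, 53.2 after APO and 57.3 after VER in C4-2B MDVR cells, and 26.5, 74.9 and 51.7 FPKM in CWR22Rv1 cells. VER thus did not exceed APO past 1.2-fold in either line, with differences of 0.11 and -0.53. In C4-2B MDVR cells VER did so after rescaling to the same sum without mitochondrial genes. The differences from DMSO were then 2.22 for APO and 2.50 for VER. The polo-like kinases PLK2 and PLK3, which respond to stress in and outside the cell cycle, had other patterns. PLK3 was lower with APO than with DMSO and higher with VER in both lines, with 8.14, 5.55 and 17.6 FPKM in C4-2B MDVR cells and 18.9, 14.9 and 24.4 FPKM in the CWR22Rv1 line. PLK2, at under 3 FPKM in every library, had 2.87, 0.925 and 2.32 FPKM in C4-2B MDVR cells and 1.36, 1.92 and 2.95 FPKM in the CWR22Rv1 line.

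All 4 genes of DNA repair and nucleotide supply were higher with VER than with DMSO in C4-2B MDVR cells (35.6% of all genes), and 3 of 4 in CWR22Rv1 cells (32.1%). DDB2 and XPC recognise damage in nucleotide excision repair. DDB2, one of the members with a response element match in its first exon, had 9.02 and 8.87 FPKM with DMSO and APO in C4-2B MDVR cells and 29.5 with VER. In CWR22Rv1 cells it started higher and its steps were smaller, at 20.2, 26.7 and 34.2 FPKM. XPC had 13.6, 24.2 and 35 FPKM in C4-2B MDVR cells, and 14, 20.6 and 20.7 FPKM in CWR22Rv1 cells, where APO and VER gave a like level.

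RRM2B, the p53-inducible subunit of ribonucleotide reductase, had 19.2, 23.1 and 58.5 FPKM in C4-2B MDVR cells and 10.2, 18.6 and 24.1 FPKM in CWR22Rv1 cells. The excess of VER over APO was 1.34 in C4-2B MDVR but 0.37 in CWR22Rv1 cells, where it fell to 0.19, under the threshold, after rescaling to the same sum. POLH, a polymerase that copies past damaged bases, stayed between 6.75 and 10.7 FPKM in all libraries. Its differences from DMSO with VER were 0.42 and 0.21.

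The 7 genes of metabolism and redox were all higher with VER than with APO in C4-2B MDVR cells (28.5% of all genes), and 5 of 7 in CWR22Rv1 cells (37.3%). TP53I3, a quinone oxidoreductase, had 3.84, 6.15 and 44.7 FPKM in the order DMSO, APO, VER in C4-2B MDVR cells. CWR22Rv1 cells held less of it, 0.849, 1.59 and 3.81 FPKM. Its excess of VER over DMSO was 3.51 and 2.04. FDXR, the reductase that passes electrons to mitochondrial ferredoxin, had 18.5, 29.3 and 94.8 FPKM in C4-2B MDVR cells and 11.6, 18.7 and 40.9 FPKM in the CWR22Rv1 line. APO gave nearly the same small step of FDXR in both lines, 0.66 and 0.69, and VER exceeded it by 1.69 and 1.12.

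SESN1, a sestrin that restrains growth signalling through mTORC1, had 9.23, 14.6 and 31.1 FPKM in C4-2B MDVR cells. In CWR22Rv1 cells APO already brought it from 5.53 to 17.8 FPKM, and VER to 23.7. The step between APO and VER was accordingly 1.08 in the former and 0.41 in the latter. TIGAR, a phosphatase that slows glycolysis, was the only metabolic member lower with VER than with APO in either line: CWR22Rv1 cells had 2.07, 4.3 and 2.64 FPKM, and C4-2B MDVR cells 10.7, 11.9 and 16.4 FPKM.

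GLS2, the mitochondrial glutaminase with a response element match in exon 1, was lower with APO and higher with VER than with DMSO in both lines. Its levels were 6.33, 3.6 and 10.9 FPKM in C4-2B MDVR cells and 8.41, 4.83 and 10.3 FPKM in CWR22Rv1 cells. The CWR22Rv1 difference of VER from DMSO, 0.29, was close to the threshold and dropped under it, to 0.22, after rescaling to the same sum. ACER2, a ceramidase of the Golgi, had the same order, with 5.14, 3.89 and 12.8 FPKM in C4-2B MDVR cells and 3.14, 2.15 and 5.51 FPKM in the CWR22Rv1 line. CES2, a carboxylesterase, ranged from 9.19 to 16.6 FPKM in C4-2B MDVR cells and only from 16.3 to 18.3 FPKM in CWR22Rv1 cells.

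Of the 10 genes of cell death, autophagy and mitochondria, 9 were compared in C4-2B MDVR cells. With VER, 8 of 9 were higher than with DMSO in that line (35.6% of all genes) and 8 of 10 in CWR22Rv1 cells (32.1%). TP53INP1, a p53 cofactor that also binds autophagy proteins, had 15.3, 26.1 and 76.1 FPKM in C4-2B MDVR cells and 9.97, 12 and 43.3 FPKM in the CWR22Rv1 line. It had the largest excess of VER over APO of any member in CWR22Rv1 cells, 1.84, against 1.54 in C4-2B MDVR cells. Its CWR22Rv1 difference with APO, 0.27, was at the edge of the threshold and fell below it with a pseudocount of 1 or a rescaling to a median ratio of 1 or to the same sum without mitochondrial genes.

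PHLDA3 encodes a repressor of AKT at the membrane. It had 21.1, 37.6 and 103 FPKM in C4-2B MDVR cells and 12.8, 38.2 and 53.7 FPKM in CWR22Rv1 cells. The exonuclease AEN, with a response element match in its 5′ UTR, had 25.2, 16.8 and 41.7 FPKM in C4-2B MDVR cells and 19.4, 23.5 and 26.7 FPKM in the CWR22Rv1 line. APO therefore stood below DMSO in the former and above it in the latter.

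SPATA18, which takes part in mitochondrial quality control, had the largest excess of VER over APO of any member in C4-2B MDVR cells. Its levels there were 0.79 FPKM with DMSO, 1.37 after APO and 10.7 after VER, a difference of 2.88 between the inhibitors. CWR22Rv1 cells started at 2.91 FPKM and had 5.35 after APO and 7.46 after VER, a difference of 0.47. SUSD6, a membrane protein that restrains growth, was at 8.34, 10.6 and 26.5 FPKM in C4-2B MDVR cells and 4.37, 3.99 and 9.82 FPKM in the CWR22Rv1 line. APO left it near DMSO in CWR22Rv1 cells, and the excess of VER over APO was alike in the lines, 1.31 and 1.28.

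PIDD1, the scaffold of a complex that activates caspase-2, was lower with APO in both lines. It had 9.5, 5.68 and 15.6 FPKM in the order DMSO, APO, VER in C4-2B MDVR cells and 26.2, 7.83 and 21.6 FPKM in CWR22Rv1 cells. The difference of VER from APO was 1.44 and 1.45, although VER exceeded DMSO only in C4-2B MDVR cells. DRAM1, a lysosomal membrane protein of autophagy, was highest with APO in C4-2B MDVR cells, with 10.9, 39.3 and 23.7 FPKM. In CWR22Rv1 cells it had 2.71, 8.04 and 9.02 FPKM, so APO and VER differed by 0.16.

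TRIAP1, an inhibitor of apoptosis that works in mitochondrial lipid transfer, was among the more abundant members, with 54.5, 50.2 and 87.8 FPKM in C4-2B MDVR cells and 40.6, 67.1 and 81.4 FPKM in the CWR22Rv1 line. PERP, a membrane protein of desmosomes and apoptosis, stayed between 41.2 and 51.2 FPKM in C4-2B MDVR and between 90.6 and 126 FPKM in CWR22Rv1 cells. EDA2R, a receptor of the TNF receptor family, separated the lines. It had 0.0891 FPKM with DMSO and 0.0135 with APO in C4-2B MDVR cells and was listed at 0 with VER, but had 2.65, 11.2 and 13.6 FPKM in CWR22Rv1 cells. KITLG, the secreted ligand of the receptor KIT, had 0.863, 1.3 and 3.21 FPKM in C4-2B MDVR cells and 5.29, 3.35 and 4.81 FPKM in CWR22Rv1 cells, where neither inhibitor level exceeded DMSO.

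**Figure D2:**
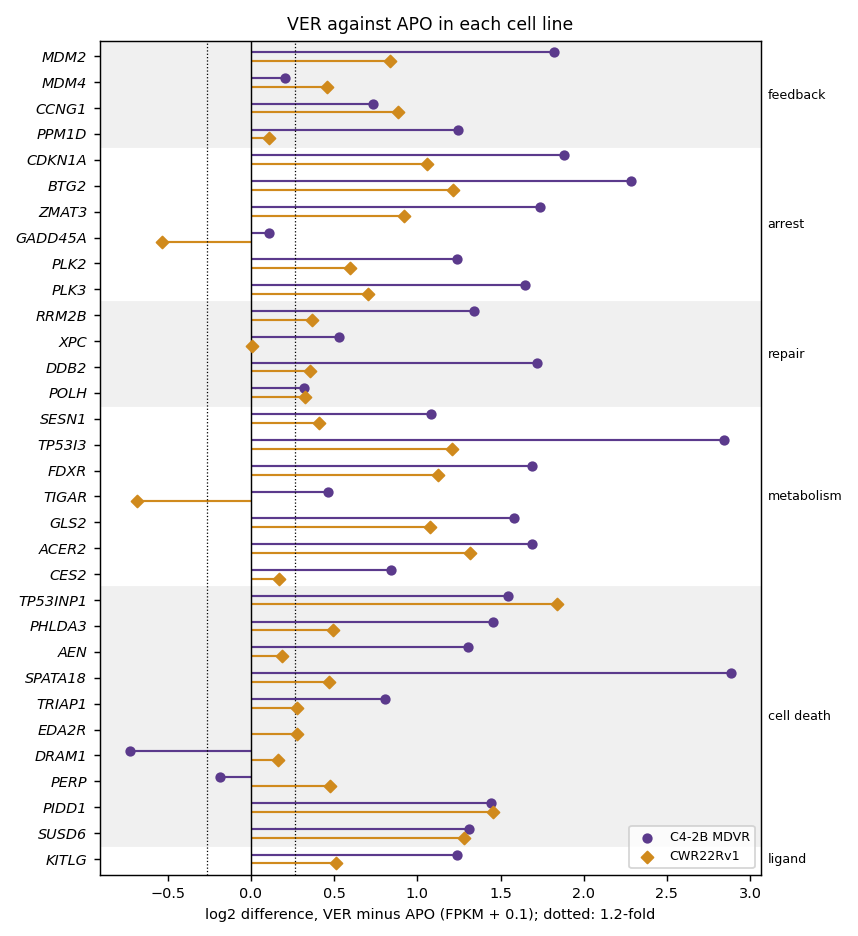
Difference of VER from APO for each member, log2(FPKM + 0.1), in C4-2B MDVR (purple circles) and CWR22Rv1 cells (orange diamonds), 1 library per condition; dotted lines mark 1.2-fold in either direction. The circles reach 2.88 for SPATA18 and the diamonds 1.84 for TP53INP1; DRAM1 in C4-2B MDVR cells and GADD45A and TIGAR in CWR22Rv1 cells lie below the lower line.

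The same contrast can be set side by side in the lines, which share no library, for 31 members and 18059 genes. VER exceeded DMSO past 1.2-fold in each line for 24 members (17.9% of these genes) and past 2-fold for 14 (3.43%). The latter were CDKN1A, MDM2, BTG2, SESN1, TP53I3, TP53INP1, ZMAT3, RRM2B, FDXR, PHLDA3, CCNG1, SPATA18, DRAM1 and SUSD6. No member was lower with VER in both lines, as 18.2% of genes were. VER exceeded APO in each line for 22 members (14.6%) and past 2-fold for 9 (2.59%), which were CDKN1A, BTG2, TP53I3, TP53INP1, FDXR, GLS2, PIDD1, ACER2 and SUSD6. The number at 1.2-fold was 18 after rescaling to the same sum and 24 without mitochondrial genes. With APO, 12 members exceeded DMSO in each line (21.3%) and 4, PLK3, GLS2, PIDD1 and ACER2, were lower in each (21.6%). The 3 members past 2-fold with APO in each line were CDKN1A, GADD45A and DRAM1 (5.24% of genes).

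A fit over all 6 libraries with limma, with treatment and cell line as terms, used the lines in place of replicates. Its error is the difference in response between the lines, not replicate error, and it has 2 residual degrees of freedom. P-values were adjusted by the Benjamini-Hochberg method over 23671 genes. With VER against DMSO 4 members rose at an adjusted p under 0.05 (0.0549% of all genes rose and 0.00845% fell). The limma mean of CDKN1A was 3.54 (95% interval 2.96 to 4.13, adjusted p = 0.0159), that of TP53INP1 2.21 (1.71 to 2.70, adjusted p = 0.0307), that of FDXR 2.08 (1.56 to 2.60, adjusted p = 0.0481) and that of CCNG1 1.61 (1.21 to 2.01, adjusted p = 0.0481). At an unadjusted p under 0.05, 20 members were higher (6.78% of all genes) and 0 lower, where 13.7% of all genes passed in either direction.

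With APO against DMSO, 3 members rose in the limma fit (1.44% of all genes rose and 0.938% fell), CDKN1A by 2.07 (1.49 to 2.66, adjusted p = 0.0205), DRAM1 by 1.69 (1.03 to 2.34, adjusted p = 0.0416) and GADD45A by 1.94 (1.13 to 2.74, adjusted p = 0.0434). At an unadjusted p under 0.05, 9 members were higher (10.1% of all genes) and 2, GLS2 and PIDD1, lower. In either direction 19.8% of all genes passed that level. For VER against APO limma called 0 members, and of all genes 0 higher and 1 lower (0.00422%). Here 19 members were higher at an unadjusted p under 0.05 (4.82% of all genes) and 0 lower, where 10.2% of all genes passed in either direction. The smallest adjusted p was 0.16, for TP53INP1 at 1.69 (1.19 to 2.19). These calls depend on the settings: with both other pseudocounts, no filter or no term for the cell line, 0 or 1 members were called after APO and 0 after VER, whereas 11 were called with VER after rescaling to the same sum. On data simulated for VER against DMSO the fit found 48 of 200 planted 4-fold changes, and the other contrasts were not simulated.

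For 4 members the limma mean of VER against APO was near 0, with the lines on opposite sides of 0. For GADD45A the difference of VER from APO was -0.21 (95% interval -1.02 to 0.59), for DRAM1 -0.28 (-0.93 to 0.37), for TIGAR -0.11 (-0.92 to 0.70) and for PERP 0.15 (-0.36 to 0.66). All 4 intervals allow a difference of over 1.5-fold in at least one direction, so they do not show that the inhibitors acted alike.

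**Figure D3:**
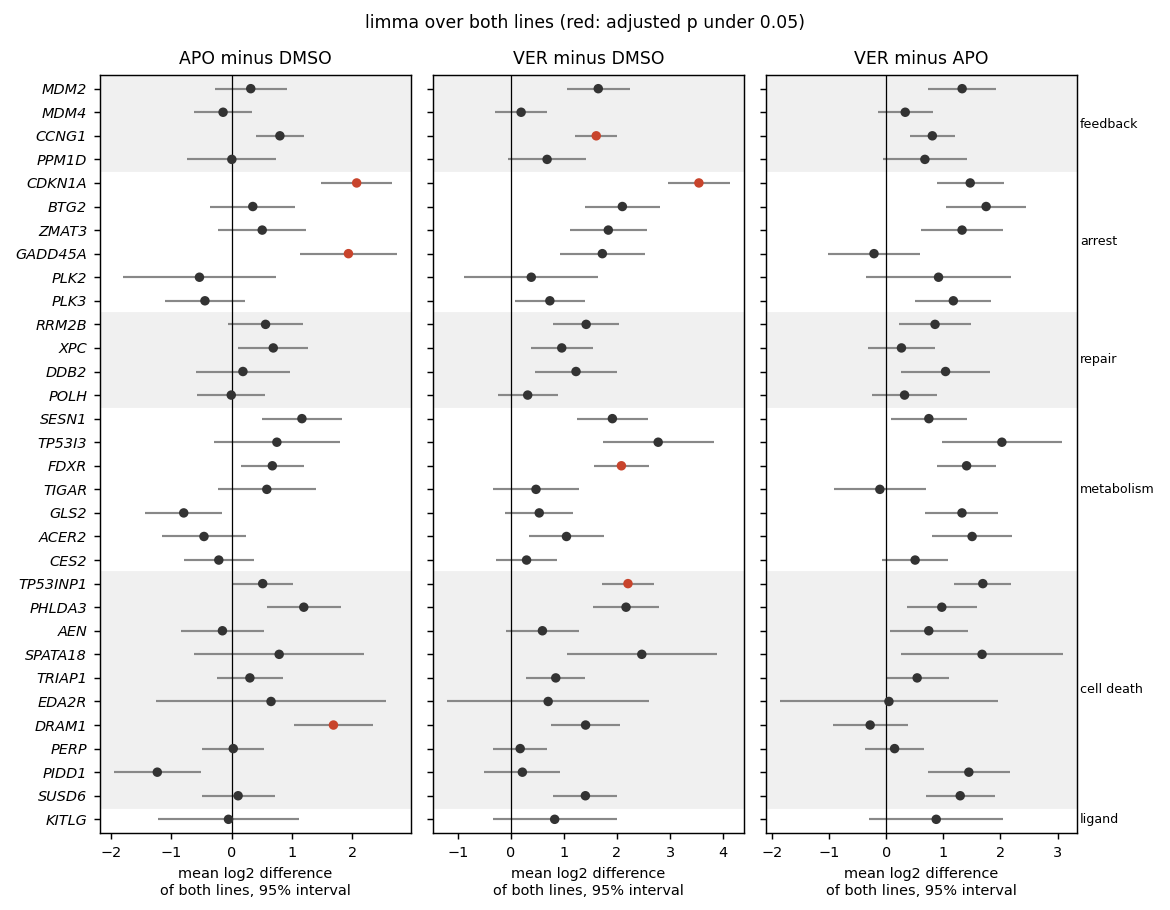
Mean log2 difference of the lines for each member in the 3 contrasts, with the 95% interval of the limma fit over 6 libraries; red points had an adjusted p under 0.05. The red points are CDKN1A, GADD45A and DRAM1 with APO and CDKN1A, TP53INP1, FDXR and CCNG1 with VER, and none stands in the contrast of VER with APO.

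Between the lines in vehicle, the members differed about as often as all genes. In the DMSO libraries 5 members were over 2-fold higher in C4-2B MDVR than in CWR22Rv1 cells, BTG2, TP53I3, TIGAR, PLK2 and DRAM1 (19.4% of 20903 genes). Lower past 2-fold were 9 members, MDM4, DDB2, GADD45A, PLK3, SPATA18, EDA2R, PERP, PIDD1 and KITLG (27.2%). The members' median difference was 0.39 and that of all genes -0.05. The lines and their maintenance media differ together, so line and enzalutamide cannot be told apart.

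Of 19 upstream regulators and relatives of p53, 18 were compared in each line, and TP63 was listed at 0 in all libraries. With VER 1 was higher and 11 lower than with DMSO in C4-2B MDVR cells (35.6% and 34.9% of all genes), and 3 were higher and 6 lower in CWR22Rv1 cells (32.1% and 32.3%), where the share lower was about that of all genes. APO gave 3 higher and 12 lower in the former (37.7% and 35.4%) and 6 in each direction in the latter (35.6% and 39.2%). CHEK1 and CHEK2, the checkpoint kinases that act between damage sensors and p53, were lower with both inhibitors. CHEK1 had 28.3, 12.1 and 7.94 FPKM in the order DMSO, APO, VER in C4-2B MDVR cells and 33, 19.7 and 18.7 FPKM in the CWR22Rv1 line. ATR, the kinase that senses stalled replication, was lower with APO by 0.88 in C4-2B MDVR and by 1.21 in CWR22Rv1 cells on the log2 scale. RCHY1, a ubiquitin ligase for p53, was higher with APO by 1.72 in CWR22Rv1 cells and by 0.14 in the C4-2B MDVR line.

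A further 16 p53 targets outside the 32 members were also measured. All 16 were higher with VER than with DMSO in each line (35.6% of all genes in C4-2B MDVR cells and 32.1% in the CWR22Rv1 line), with medians of 1.42 in C4-2B MDVR cells and 1.06 in the CWR22Rv1 line. With APO 12 were higher in C4-2B MDVR cells and 11 in the CWR22Rv1 line (37.7% and 35.6% of all genes), with medians of 0.91 and 0.69. VER exceeded APO for 10 and APO exceeded VER for 3 in C4-2B MDVR cells (28.5% and 32.5% of all genes), with a median of 0.61. In CWR22Rv1 cells each exceeded the other for 7 of the 16 (37.3% and 34.5% of all genes), with a median of -0.05. Those CWR22Rv1 counts are not far from the shares of all genes. SESN2, a sestrin, had 5.88 FPKM with DMSO, 56.5 after APO and 42.2 after VER in C4-2B MDVR cells and 6.25, 57.8 and 21.1 FPKM in CWR22Rv1 cells. GDF15, a secreted stress cytokine, had 10, 227 and 753 FPKM in C4-2B MDVR cells and 41, 1401 and 971 FPKM in the CWR22Rv1 line. TNFRSF10B, the death receptor DR5, was like SESN2 higher with APO than with VER in both lines. FAS, another death receptor, was not: VER exceeded APO by 1.62 and 1.6.

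ATF4, the transcription factor of the integrated stress response, and 5 of its targets were also higher with the inhibitors. All 6 were past 1.2-fold above DMSO with APO and with VER in both lines. The medians of the list were 3.25 after APO and 2.72 after VER in C4-2B MDVR cells, and 2.78 and 1.2 in CWR22Rv1 cells. In the latter all 6 were lower with VER than with APO (34.5% of all genes). Between the inhibitors the median of this list was -0.14 in C4-2B MDVR cells and -1.04 in the CWR22Rv1 line. DDIT3, which encodes CHOP, had 18.5, 437 and 185 FPKM in C4-2B MDVR cells and 49.3, 753 and 125 FPKM in the CWR22Rv1 line. The part of ATF4 in the levels of the p53 targets was not tested.

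Cell cycle genes that p53 is known to repress through p21 and the DREAM complex were mostly lower with both inhibitors. All 15 listed were lower with VER than with DMSO in both lines (34.9% of all genes in C4-2B MDVR cells and 32.3% in the CWR22Rv1 line), with medians of -3.08 in C4-2B MDVR cells and -1.29 in the CWR22Rv1 line. APO gave 13 and 11 lower (35.4% and 39.2% of all genes), with medians of -0.99 and -0.47. PLK1, a kinase of mitosis, had 92.6, 44.5 and 3.84 FPKM in the order DMSO, APO, VER in C4-2B MDVR cells and 52.2, 43 and 13.5 FPKM in CWR22Rv1 cells. MKI67, the proliferation marker Ki-67, had 23.4, 6.86 and 1.5 FPKM in C4-2B MDVR cells, and 27.4, 8.64 and 10.1 FPKM in CWR22Rv1 cells. In bulk RNA, a lower share of cycling cells and less of these transcripts per cell cannot be told apart. The same holds for the members and for upstream regulators such as CHEK1 and CHEK2.

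**Figure D4:**
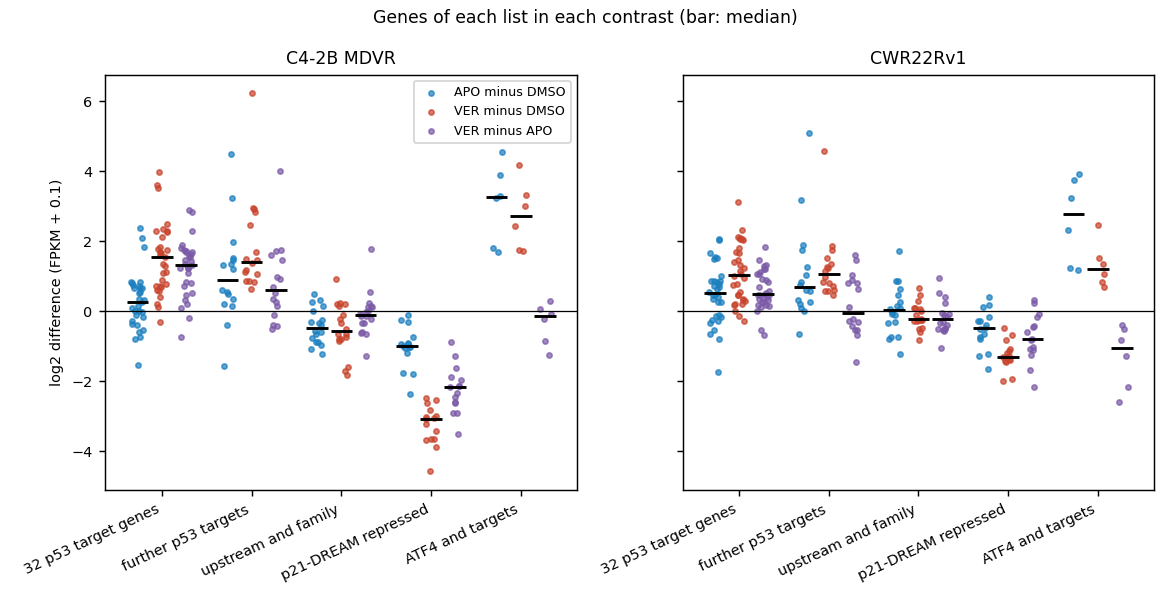
Log2 differences (FPKM + 0.1) of the genes in 5 lists for the 3 contrasts, with C4-2B MDVR cells on the left and CWR22Rv1 cells on the right. Each point is 1 gene and each black bar the median; the 32 p53 target genes have medians of 1.56 and 1.03 for VER against DMSO, and the p21-DREAM repressed genes -3.08 and -1.29.

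Some members share sequence with neighbouring genes. By GENCODE 29, 5 members (MDM2, TIGAR, PHLDA3, GLS2 and CES2) have exons that overlap an exon of another gene on the same strand. Exons of 13 members, CDKN1A and TP53I3 among them, overlap another gene on the opposite strand, and 18 have neither. The labels describe a kit that marks the strand, but whether the counting used it is not given in the sources used here, so the values of these members may hold fragments of their neighbours.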

How the data were processed

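The authors aligned paired-end reads with HISAT, ran a Cufflinks pipeline on GRCh38 and deposited FPKM values of every gene in each library, which Cuffnorm had normalized across libraries; tool versions are not given in the sources used here. Per the labels, libraries came from polyadenylated RNA with a strand-marking kit, whereas the published methods name another kit. Read totals are not in the tables, so no counting error is given; relative depth was read from ratios of low FPKM values. Samples were grouped by their titles. Of 60658 identifiers, 57047 had a GENCODE 29 entry.

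Differences of log2(FPKM + 0.1) were taken for genes above 0.1 FPKM in at least 1 library of the line and called past 1.2-fold. The design with all 6 libraries was fitted with limma 3.58.1 (R 4.3.3; trended prior, 5.01 prior degrees of freedom), 95% intervals and Benjamini-Hochberg adjustment at 0.05. Python 3.11.15, pandas 2.3.3, numpy 2.4.6 and matplotlib 3.10.9 were used. The fold and limma steps were tested on simulated data. Of other lists, ATF4, DDIT3 and at most 6 genes each, those past 2-fold from DMSO in most contrasts, could be named. TP63 was named after its values were seen. Some genes of the other lists are not reported here. Members and lists were chosen with earlier results of these data known. Sites were searched in GENCODE 29 transcripts and RefSeq promoter windows (GRCh38.p14), of which 28 of 32 members had one. Alternatives were other pseudocounts, filters, scalings, thresholds and no term for the cell line; counts over both lines were added after seeing the data.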

Additional observations from a re-analysis of the deposited data

Results flagged for a closer look

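For some members the inhibitors gave opposite directions in the lines, each past 1.2-fold and each from 1 library per condition, and these differences between lines were not tested. With APO against DMSO, PPM1D differed by -0.35 in C4-2B MDVR cells and 0.36 in the CWR22Rv1 line, and AEN by -0.58 and 0.28. PLK2, at under 3 FPKM, differed by -1.54 and 0.47 in the same contrast, and KITLG by 0.54 and -0.65. The CWR22Rv1 differences of PPM1D and AEN were under 1.2-fold, at 0.21 and 0.12, after rescaling to the same sum without mitochondrial genes.

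With VER against DMSO, PLK2 differed by -0.3 in C4-2B MDVR cells and 1.06 in the CWR22Rv1 line and PIDD1 by 0.71 and -0.28. These 2 small differences also came under the threshold, PLK2 at -0.22 with a pseudocount of 1 and PIDD1 at -0.23 after rescaling to a median ratio of 1. With VER against APO, TIGAR differed by 0.46 and -0.68. In all, 4, 2 and 1 of 31 members were opposite in these 3 contrasts, where 13.2%, 11.5% and 14.5% of 18059 genes were.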

How the results depend on the processing

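There was 1 library per condition, so no replicate could be left out within a line. The labels carry no replicate numbers, so libraries were paired only by the cell line term of the limma fit. The 6 medians of the members kept their sign in every setting tried. At 2-fold, members higher with APO than DMSO numbered 3 in C4-2B MDVR cells and 7 in the CWR22Rv1 line (3 in both lines), those higher with VER than DMSO 17 in CWR22Rv1 cells (14 in both lines), and those higher with VER than APO 9 in CWR22Rv1 cells (9 in both lines). At 1.5-fold the last counts were 14 in CWR22Rv1 cells and 14 in both lines. Members lower with APO than DMSO numbered 3 at 1.5-fold and 1 at 2-fold in either line, and 10 in CWR22Rv1 cells after rescaling to the same sum without mitochondrial genes. Members lower with VER than DMSO numbered 0 at 1.5-fold and 0 at 2-fold in either line, 0 with a pseudocount of 1 and 2 with no filter in C4-2B MDVR cells, and 0 in CWR22Rv1 cells after rescaling to a median ratio of 1. Members lower with VER than APO numbered 0 at 2-fold in either line and 1 at 1.5-fold in CWR22Rv1 cells.

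Members called by limma numbered, for APO against DMSO, 1 with a pseudocount of 0.01, 1 with a pseudocount of 1, 0 with no filter and 0 with no cell line term. For VER against DMSO they were 0 with a pseudocount of 0.01, 0 with a pseudocount of 1, 0 with no filter, 0 with no cell line term, 2 among genes above 1 FPKM and 11 after rescaling to the same sum (TPM). For VER against APO it was 0 throughout. Fewer members are called at a higher fold threshold by its construction. The cause of the other shifts was not tested. Counting each member, contrast and setting once, 26 values fell under and 14 passed the 1.2-fold threshold and 1472 stayed on their side. No value past the threshold changed sign. Some under it did, among them APO against DMSO of MDM2, MDM4, POLH and TIGAR in C4-2B MDVR cells after rescaling to the same sum. Low FPKM values limit PLK2, EDA2R, TP53I3 in CWR22Rv1 and SPATA18 and KITLG in C4-2B MDVR cells most. The number of fragments behind them is not given.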
